A study of Mus musculus with 17 samples.

Results

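The 10 genes described here are markers of mesothelial cells, the lining cells of the body cavities, and of the tumors that arise from them. They are Msln, Muc16, Upk3b, Upk1b, Lrrn4, Wt1, Calb2, Krt8, Krt18 and Krt19, chosen by symbol in the Gencode vM21 annotation, and they make up 10 of the 55450 genes counted. They were followed in 17 tumors, 1 library per tumor, of AB12, a murine mesothelioma cell line. The tumors grew in the peritoneum of female BALB/c mice, aged 8 weeks, after injection of 100000 AB12 cells. Of the untreated tumors 3 were taken at d6, 5 at d10 and 3 at d14. Tumors of mice given 200 µg per injection of anti-CTLA4 (clone 9D9), an antibody against an inhibitory receptor of T cells, were taken at d10 and d14, 3 on each day. The study describes injections on d6 and d10 for the d14 tumors, the labels give a course of 4 injections, and the schedule of the treated d10 tumors is not given in the sources used here. All groups carried tumors of the same cell line, and the RNA of each tumor came from AB12 cells together with the host's own cells, including any host mesothelium. For a gene in such bulk RNA, fewer cells of a type and less RNA per cell cannot be told apart.

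Mesothelial cells are epithelial in form but arise from mesoderm, and they carry keratins beside mesenchymal filaments. Mesothelin, encoded by Msln, is a surface protein that binds the mucin encoded by Muc16, and both are tumor antigens in mesothelioma and ovarian cancer. The transcription factor encoded by Wt1, the calcium-binding protein calretinin, encoded by Calb2, and the keratins are stained by pathologists to recognise mesothelioma.

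Total counts per library ranged from 46371577 to 96759833, with a median of 72413343. Counts of the small RNA gene Mir6236, a trait on which libraries of this series stood apart, were 3387 to 12332 in the d6 tumors and in untreated d10 replicates 1 to 3, 141 and 176 in untreated d10 replicates 5 and 4, 205 to 1244 in the treated d10 tumors and 5 to 24 in all d14 tumors. Treated and untreated d14 tumors thus lay in the same range, whereas day and this trait cannot be told apart between d14 and earlier days. Comparisons with the untreated d10 tumors are therefore also given with replicates 1 to 3 alone and with replicates 4 and 5 alone.

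Promoter windows of 300 bases from RefSeq (GRCm38.p6), from 250 bases before to 50 after the gene start in RefSeq, were at hand for 5 of the 10 genes. Those of Upk3b and Lrrn4 are shown because these genes varied together between tumors, and those of Krt8 and Krt18 because they did so too and lie close together. The windows are chr5:136038246-136038545 (plus strand) for Upk3b, chr2:132880813-132881112 (minus strand) for Lrrn4, chr15:102004293-102004592 (minus strand) for Krt8 and chr15:102027966-102028265 (plus strand) for Krt18, each read along the gene's strand. Gene positions elsewhere in the text are those of Gencode vM21, whose start is the same for Upk3b and differs for the other genes shown. Capitals mark matches on either strand to the letters GGAATG (the core bound by TEAD factors), GGGCGG (SP1), TGANTCA (AP-1) and TATAAA (the TATA box).
Upk3b: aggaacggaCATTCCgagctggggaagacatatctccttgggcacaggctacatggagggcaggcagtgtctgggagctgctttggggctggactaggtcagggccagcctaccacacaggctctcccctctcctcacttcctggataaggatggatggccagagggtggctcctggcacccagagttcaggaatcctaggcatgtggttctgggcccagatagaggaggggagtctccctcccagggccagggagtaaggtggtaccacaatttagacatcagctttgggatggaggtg
Lrrn4: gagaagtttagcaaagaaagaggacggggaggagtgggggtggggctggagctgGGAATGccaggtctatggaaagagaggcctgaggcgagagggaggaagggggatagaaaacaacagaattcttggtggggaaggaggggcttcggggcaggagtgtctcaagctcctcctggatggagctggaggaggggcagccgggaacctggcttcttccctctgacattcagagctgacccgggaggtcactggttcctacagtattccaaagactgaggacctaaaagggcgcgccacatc
Krt8: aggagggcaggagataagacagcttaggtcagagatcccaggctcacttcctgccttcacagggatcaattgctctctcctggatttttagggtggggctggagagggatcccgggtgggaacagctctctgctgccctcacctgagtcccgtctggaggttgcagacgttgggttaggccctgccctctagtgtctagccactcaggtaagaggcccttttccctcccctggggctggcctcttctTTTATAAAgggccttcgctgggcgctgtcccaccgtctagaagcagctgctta
Krt18: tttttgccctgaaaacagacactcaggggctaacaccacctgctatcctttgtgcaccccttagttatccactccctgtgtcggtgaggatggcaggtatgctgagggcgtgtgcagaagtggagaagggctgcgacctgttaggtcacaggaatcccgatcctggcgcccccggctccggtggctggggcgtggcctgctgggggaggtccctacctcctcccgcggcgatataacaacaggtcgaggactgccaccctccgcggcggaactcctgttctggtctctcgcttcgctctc

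Upk3b and Lrrn4 each held 1 match to GGAATG, which 14.7% of the 32851 mouse promoter windows hold. In Upk3b it was read on the opposite strand at bases 10 to 15 of the window, and in Lrrn4 it lay at bases 55 to 60. Krt8 held overlapping TATAAA matches on both strands between bases 248 and 255, and 13.6% of all windows hold that motif. These matches began at -3 and -1 relative to the RefSeq gene start, and so spanned that start. Krt18 and Muc16, the remaining gene with a window, held no match to any of these letters, and GGGCGG and TGANTCA, present in 35.7% and 7.8% of all windows, were in none of the 5. These motifs were picked after the sequences had been seen, and a match describes letters only.

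The genes fell into an abundant and a scarce set. Per kb of exon, the mean level over the 17 tumors was 564 CPM (counts divided by TMM-adjusted library size) for Krt18, 459 for Krt8, 375 for Krt19 and 129 for Msln. It was 3.05 CPM per kb for Wt1, 3.00 for Upk1b, 2.59 for Lrrn4, 2.31 for Upk3b, 1.95 for Calb2 and 0.031 for Muc16. The order from Krt18 to Krt8 held in 17 of 17 tumors and that from Krt8 to Krt19 in 15, and Krt19 exceeded Msln, and Msln exceeded Wt1, in 17 of 17. Among the scarce genes neighbours in the order were not apart beyond their spread, since Wt1 exceeded Upk1b in 13 tumors, Upk1b exceeded Lrrn4 in 9, Lrrn4 exceeded Upk3b in 10 and Upk3b exceeded Calb2 in 8, whereas Calb2 exceeded Muc16 in all 17. The scarce genes varied more between tumors. Their highest level was 40.7 times the lowest for Muc16 (5 to 299 counts), 25.8 for Lrrn4, 14.8 for Upk3b, 13.8 for Upk1b, 5.68 for Wt1 and 4.70 for Calb2. For the abundant genes it was 3.77 times for Msln, 3.53 for Krt19, 2.36 for Krt8 and 2.24 for Krt18. Low counts add to such ratios.

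**Figure D1:**
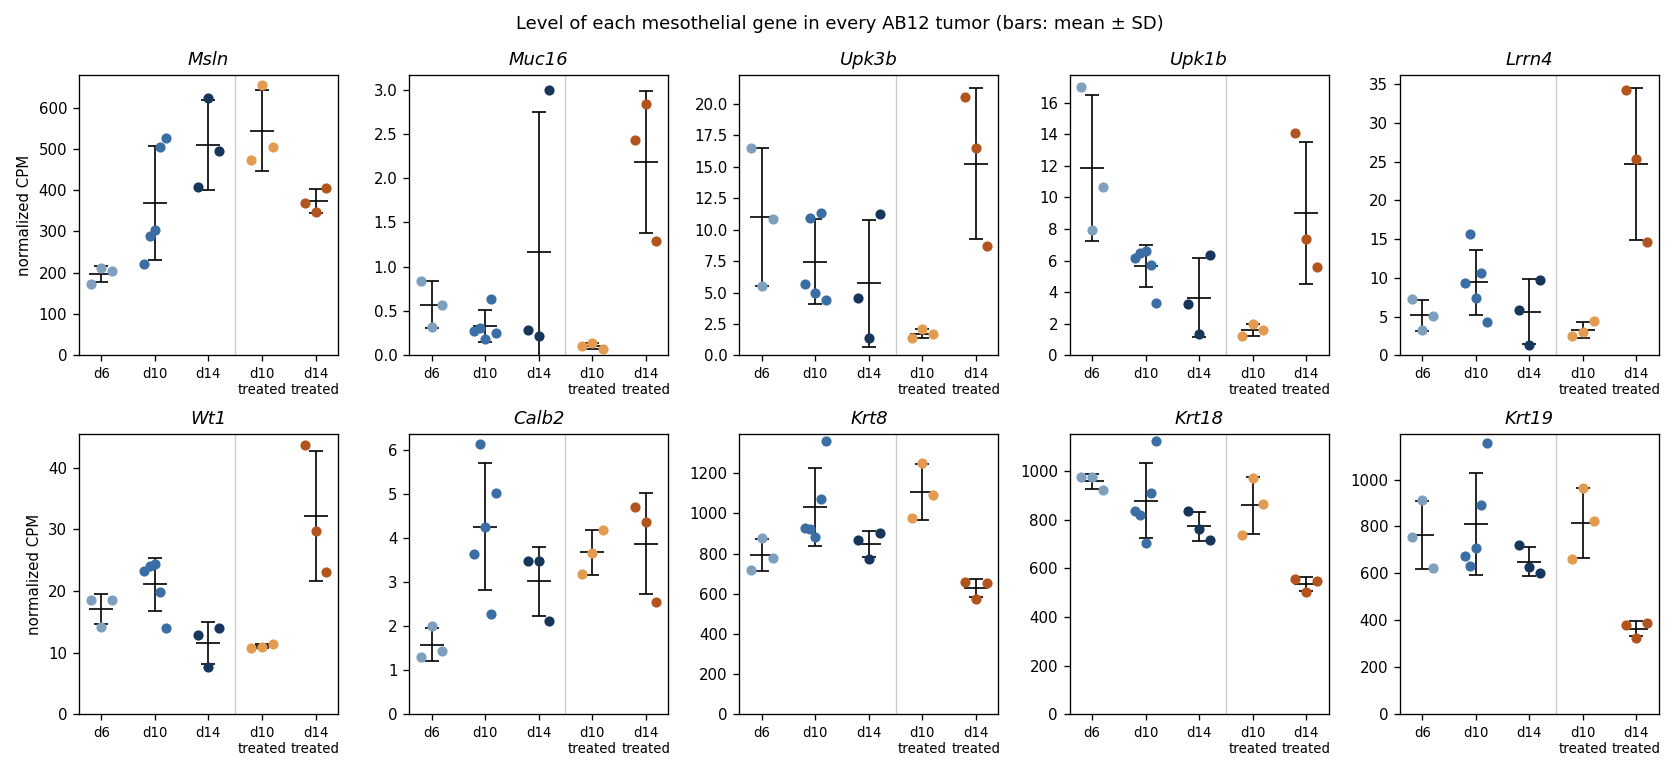
Normalized CPM (linear axis from 0) of each of the 10 genes in every tumor, by group: untreated d6, d10 and d14 tumors in blue, anti-CTLA4 treated d10 and d14 tumors in orange. Horizontal marks and bars give the mean ± SD of the group, with the bar of Muc16 at d14 ending at the axis. Wt1 and Lrrn4 are higher in every treated d14 tumor than in any untreated d14 tumor, and Krt8, Krt18, Krt19 and, by a narrow margin, Msln are lower.

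Each comparison was tested with edgeR's quasi-likelihood test over all expressed genes, and a gene was called when its Benjamini-Hochberg adjusted p was below 0.05 and its fold change above 2. All 10 genes were tested in each comparison. Where tumors of compared groups are said not to overlap, the share of all genes separated likewise was not counted. From d6 to d10, 1 of them was called higher (Calb2) and 1 lower (Upk1b), where 4.79% of all 16866 tested genes were called higher and 2.66% lower. From d10 to d14 none was called in either direction (3.78% and 3.45% of all genes higher and lower), and none by DESeq2. At an unadjusted p below 0.05, 1 of the 10 was higher and 1 lower, beside 3082 and 3420 of all 17659 genes. Between d6 and d14, 1 was called higher (Msln) and 1 lower (Upk1b), against 10.2% and 8.81% of all genes. Between treated and untreated d14 tumors 2 were called higher (Wt1 and Lrrn4) and 0 lower, against 9.07% and 2.4% of all genes, and DESeq2 also called none lower. At an unadjusted p below 0.05, 3 of the 10 were higher and 4 lower, beside 4280 and 3919 of all 18062 genes. Counts of 0 or 1 of 10 genes over time can be read only against those shares. The median log2 fold change of the 10 genes was 0.19 between d6 and d10, -0.34 from d10 to d14, -0.06 from d6 to d14 and 0.69 under treatment at d14, where the medians of all genes were 0.03, -0.04, 0.01 and -0.00.

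**Figure D2:**
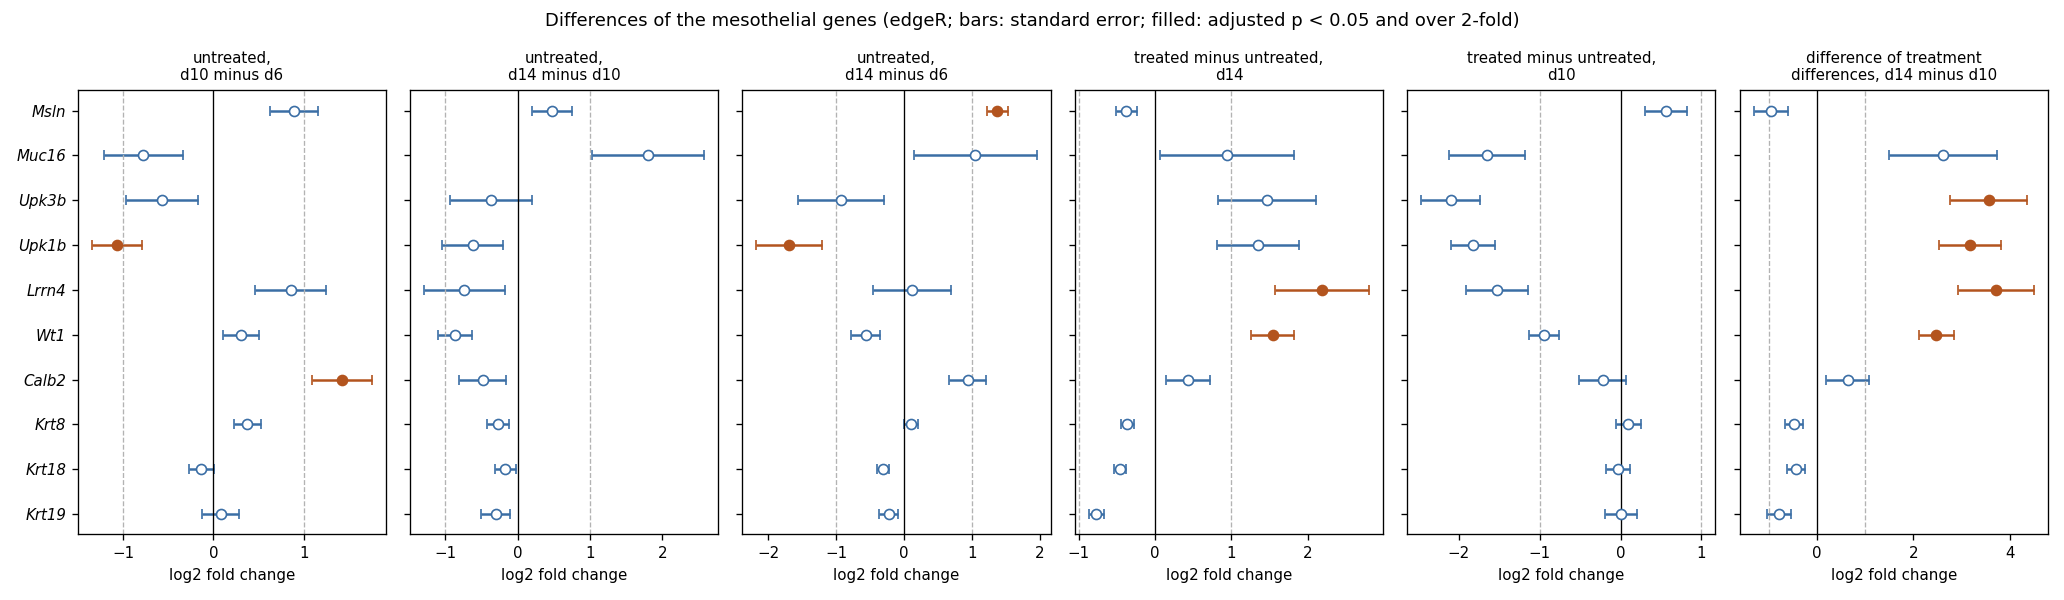
Log2 fold change of each gene in the 5 comparisons and the difference between the d14 and d10 treatment differences, with its standard error as a bar. Filled symbols passed an adjusted p of 0.05 and a fold change of 2, and dashed lines mark a log2 fold change of 1 in either direction. At d14 the scarce genes lie to the right of 0 and Msln and the keratins to the left, whereas at d10 the scarce genes lie to the left.

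Msln, on chromosome 17 (25748613 to 25754378), was among the most abundant genes of these tumors and was higher in untreated d10 and d14 tumors than at d6. Its normalized CPM were 174, 212 and 205 at d6, then 222, 288, 304, 503 and 526 in untreated d10 replicates 1 to 5, and 407, 624 and 494 at d14. Every d10 and d14 tumor lay above every d6 tumor, and the d10 tumors were split, with replicates 4 and 5 at the level of d14. Replicates 4 and 5 also had fewer Mir6236 counts than replicates 1 to 3, and the part of this trait in the differences over time was not tested. The log2 fold change from d6 to d14 was 1.37 (SE 0.16, edgeR's quasi-likelihood test, adjusted p = 0.00019), and in all 11 alternatives it lay between 1.20 and 1.53. From d6 to d10 it was 0.89 (SE 0.26, adjusted p = 0.044), within 2-fold, with 0.48 for replicates 1 to 3 and 1.34 for replicates 4 and 5. From d10 to d14 it was 0.48 (SE 0.28, edgeR, adjusted p = 0.24) and did not pass the test. In the 15 alternatives that value lay between 0.017 and 0.90. In treated tumors Msln stood at 472, 655 and 505 CPM at d10 and at 369, 348 and 405 at d14. The treated d14 tumors all lay just under the lowest untreated d14 tumor, a difference of -0.38 (SE 0.14, edgeR, adjusted p = 0.073) that did not pass the test.

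Muc16, the mucin that mesothelin binds, lies on chromosome 9 (18495455 to 18674530) and had only 5 to 299 counts per tumor. Its CPM were 0.84, 0.32 and 0.57 at d6, 0.27, 0.31, 0.19, 0.64 and 0.25 at d10 and 0.28, 0.22 and 3.00 at d14 in untreated tumors. The treated tumors had 0.11, 0.14 and 0.074 CPM at d10 and 2.43, 2.84 and 1.29 at d14. Untreated d14 replicate 3 stood with the treated d14 tumors and far above its own group, and Muc16 was not called in any of the 5 comparisons. Without that tumor the treated minus untreated log2 difference at d14 was 3.21 (SE 0.43, edgeR, adjusted p = 0.0027) in place of 0.95 (SE 0.88, adjusted p = 0.43).

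Upk3b and Upk1b encode uroplakins, membrane proteins best known from the bladder lining that mesothelial cells also make, and Lrrn4 encodes a leucine-rich repeat membrane protein used as a mesothelial marker. They lie on chromosomes 5 (136038496 to 136046487), 16 (38773184 to 38800328) and 2 (132868305 to 132880891). Other uroplakin genes of the bladder gave little signal, since Upk2 and Upk3a had at most 3 counts in every library and Upk1a at most 0.67 CPM.

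Upk1b was 16.98, 7.94 and 10.6 CPM at d6, 6.16, 6.49, 6.61, 5.72 and 3.32 at d10 and 3.24, 1.38 and 6.36 at d14 in untreated tumors. Every d10 and every d14 tumor lay below every d6 tumor. It fell from d6 to d10 by 1.07 on the log2 scale (SE 0.28, edgeR, adjusted p = 0.028) and from d6 to d14 by 1.69 (SE 0.49, adjusted p = 0.017). The call for d10 was lost without d6 replicate 1 (-0.72) or 3 (-1.14) or without d10 replicate 5 (-0.92), and that for d14 without d6 replicate 1 (-1.34) or d14 replicate 1 (-1.60). Against d10 replicates 1 to 3 the first difference was -0.86, against replicates 4 and 5 it was -1.44, and with the replicate number as a block it was -0.80.

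Upk3b in untreated tumors was 16.5, 5.55 and 10.9 CPM at d6, 5.70, 10.9, 4.96, 11.3 and 4.39 at d10 and 4.56, 1.39 and 11.3 at d14. These days overlapped, and none of the differences over time passed the test (log2 fold changes from -0.93 to -0.37, edgeR, adjusted p from 0.24 to 0.67). Lrrn4 was 7.23, 3.26 and 5.10 CPM at d6, 9.30, 15.6, 7.35, 10.6 and 4.30 at d10 and 5.80, 1.33 and 9.76 at d14, and overlapped in the same way. At d14 the same tumor was highest for all of these genes, replicate 3, and replicate 2 lowest.

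Under anti-CTLA4 at d14 Lrrn4 stood at 34.2, 25.3 and 14.6 CPM, each above the highest untreated d14 tumor. It rose by 2.19 on the log2 scale (SE 0.62, edgeR, adjusted p = 0.030). That call was lost without treated replicate 1 (1.92) or 2 (2.21), without untreated replicate 1 (2.21) and with the replicate block (2.47, adjusted p = 0.054). Upk3b was 20.6, 16.5 and 8.71 CPM and Upk1b 14.1, 7.35 and 5.57 CPM in the treated d14 tumors, and for both the lowest treated tumor lay under untreated replicate 3. Their differences were 1.46 (SE 0.65, edgeR, adjusted p = 0.12) and 1.35 (SE 0.54, adjusted p = 0.089) and did not pass the test, although without untreated replicate 3 they were 2.46 and 2.06 and were called. Upk1b was also called with all 5 groups in one fit (1.32, adjusted p = 0.042) and with all genes of at least 1 count (1.35, adjusted p = 0.039).

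Wt1, on chromosome 2 (105126529 to 105173616), encodes a zinc finger transcription factor of mesothelium and kidney. Untreated tumors had 18.5, 14.2 and 18.5 CPM at d6, 23.3, 24.1, 24.3, 19.8 and 14.1 at d10 and 12.9, 7.71 and 14.0 at d14. The d14 tumors lay below all tumors of both earlier days, by a narrow margin from the lowest ones. From d10 to d14 Wt1 fell by 0.87 (SE 0.24, edgeR, adjusted p = 0.033), within 2-fold, by 1.06 against d10 replicates 1 to 3 and by 1.10 with the replicate block (both called), while against replicates 4 and 5 the difference was -0.52 (adjusted p = 0.18).

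In treated d14 tumors Wt1 stood at 43.8, 29.7 and 23.2 CPM, the highest levels of the series apart from 3 untreated d10 tumors that exceeded the third of them. It rose by 1.54 over untreated d14 tumors (SE 0.28, edgeR, adjusted p = 0.0087), and leaving out any single tumor kept the difference between 1.29 and 1.78 and past the thresholds. Wt1 has an antisense neighbour, Wt1os, whose exons do not overlap its own in the annotation.

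Calb2, on chromosome 8 (110137502 to 110168210), was a low gene, with 59 to 482 counts per tumor. Untreated levels were 1.30, 1.996 and 1.44 CPM at d6, 3.64, 6.12, 4.24, 2.27 and 5.01 at d10 and 3.47, 3.47 and 2.11 at d14. All later untreated tumors lay above all d6 tumors. Calb2 rose from d6 to d10 by 1.43 (SE 0.33, edgeR, adjusted p = 0.016), a call lost without d6 replicate 1 (1.31) or 3 (1.36), and from d6 to d14 by 0.94 (SE 0.27, adjusted p = 0.019), within 2-fold. Treated tumors, with 3.18, 3.66 and 4.18 CPM at d10 and 4.69, 4.36 and 2.55 at d14, overlapped the untreated tumors on both days.

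Krt8 and Krt18 encode partner keratins of simple epithelia, which assemble as a pair into filaments, and lie on chromosome 15 (101996698 to 102004482 and 102028180 to 102032027) with 23698 bases between their starts in Gencode vM21. Krt19, on chromosome 11 (100140810 to 100148665), encodes a small acidic keratin. Reads of Krt8 could be shared with Gm36026 over 5.2% of its exon bases.

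Krt8 was 720, 879 and 776 CPM at d6, 929, 921, 883, 1070 and 1359 at d10 and 867, 775 and 901 at d14 in untreated tumors, and 979, 1253 and 1090 at d10 and 658, 575 and 653 at d14 in treated tumors. Krt19 was 753, 912 and 623 CPM at d6, 672, 631, 708, 891 and 1154 at d10 and 723, 628 and 602 at d14, and under treatment 661, 963 and 822 at d10 and 381, 327 and 387 at d14. For both genes the treated d14 tumors were the lowest of their day without overlap, and untreated d10 replicate 5 was the highest tumor.

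Krt18 gave the same picture at d14, with 835, 764 and 719 CPM in untreated and 555, 502 and 549 CPM in treated tumors. Under treatment at d14 Krt19 fell by 0.77 (SE 0.099, edgeR, adjusted p = 0.0049), Krt18 by 0.46 (SE 0.080, adjusted p = 0.0075) and Krt8 by 0.37 (SE 0.088, adjusted p = 0.019). All 3 changes were within 2-fold and so are not among the called genes. Over time Krt18 fell between d6, where it was 977, 975 and 923 CPM, and d14 by 0.31 (SE 0.087, edgeR, adjusted p = 0.016), and no other keratin difference over time passed the test. At d10 Krt18 was 837, 819, 706, 909 and 1124 CPM in untreated and 740, 973 and 867 CPM in treated tumors, which overlapped.

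At d10 none of the 10 genes was called between treated and untreated tumors by edgeR's quasi-likelihood test, where 0.0174% of all 17258 genes were called higher and 0% lower. At an unadjusted p below 0.05, 0 of the 10 were higher and 5 lower, beside 978 and 1351 of all genes, and DESeq2 called 3 of the 10 lower (Upk3b, Upk1b and Lrrn4), where it called 0.962% of all genes lower. Upk3b stood at 1.42, 2.09 and 1.71 CPM in the treated d10 tumors, Upk1b at 1.23, 2.02 and 1.59, Wt1 at 10.8, 10.9 and 11.4 and Lrrn4 at 2.44, 2.96 and 4.49. For Upk3b, Upk1b, Wt1 and Muc16 all treated tumors lay below all 5 untreated ones, and for Lrrn4 and the remaining genes the groups overlapped. How many of all genes separate in this way was not counted. The log2 differences were -2.10 (SE 0.36, edgeR, adjusted p = 0.099) for Upk3b, -1.82 (SE 0.27, adjusted p = 0.074) for Upk1b, -1.65 (SE 0.47, adjusted p = 0.25) for Muc16, -1.52 (SE 0.38, adjusted p = 0.21) for Lrrn4 and -0.94 (SE 0.19, adjusted p = 0.14) for Wt1.

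The result at d10 depended on which untreated tumors entered. Against untreated replicates 1 to 3 all 5 of these genes were called lower (-2.06 for Upk3b, -2.02 for Upk1b, -1.72 for Lrrn4, -1.31 for Muc16 and -1.13 for Wt1, edgeR, adjusted p from 0.00014 to 0.033), and 4.85% of all genes were. Against replicates 4 and 5 none was called, with differences of -2.16, -1.47, -1.16, -2.05 and -0.60 in the same order and adjusted p from 0.054 to 0.18, beside 0.21% of all genes called lower. Without untreated replicate 5, 4 of the 5 were called, beside 0.401% of all genes. The members' median was -0.58, beside -0.01 for all genes.

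The treatment difference itself was compared between the days as (treated minus untreated at d14) minus (treated minus untreated at d10). In that test 4 of the 10 genes were called higher and 0 lower, where 9.67% of all 18574 genes were called higher and 2.15% lower. The log2 differences between days were 3.71 (SE 0.78, edgeR's quasi-likelihood test, adjusted p = 0.0076) for Lrrn4, 3.56 (SE 0.80, adjusted p = 0.0098) for Upk3b, 3.17 (SE 0.64, adjusted p = 0.0062) for Upk1b and 2.48 (SE 0.36, adjusted p = 0.0026) for Wt1. These 4 genes stayed called in each of the 22 alternatives, between 3.22 and 4.36 for Lrrn4, 3.08 and 4.50 for Upk3b, 2.69 and 3.82 for Upk1b and 2.14 and 2.67 for Wt1. For Krt19 the difference between days was -0.79 (SE 0.26, edgeR, adjusted p = 0.048), within 2-fold, and for Msln it was -0.96 (SE 0.35, adjusted p = 0.075). Against untreated d10 replicates 1 to 3 these 2 were called lower (-1.03 and -1.37), and against replicates 4 and 5 the value of Msln was -0.49 (adjusted p = 0.14). The members' median was 1.56, beside -0.02 for all genes. In the same test 5 of 5 fibroblast markers (median 2.13), 3 of 3 tested adipocyte markers (median 2.86), 3 of 4 leukocyte markers (Ptprc, Cd3e and Cd68) and 1 of 4 endothelial markers (Pecam1) were called higher, and their part in the difference was not tested.

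Across the 17 tumors the genes formed groups that moved together. Pearson's r of log2(CPM + 1) was 0.91 between Upk3b and Upk1b, 0.92 between Wt1 and Lrrn4, 0.83 between Upk3b and Lrrn4 and 0.75 between Upk3b and Muc16. Among the keratins it was 0.94 between Krt18 and Krt19, 0.87 between Krt8 and Krt19 and 0.75 between Krt8 and Krt18. With each group's mean taken off, so that only differences between tumors of the same group remained, r was 0.86, 0.85, 0.92 and 0.82 for the former pairs and 0.85, 0.87 and 0.84 for the latter. Within groups Msln was on the side of the keratins, with r of 0.68 with Krt8, 0.67 with Krt19 and 0.58 with Krt18. Over all tumors these values were 0.42, 0.12 and -0.09. In untreated d10 tumors Msln was split along with the Mir6236 counts. The part of this split in the within-group values was not tested. Msln opposed Upk1b (-0.76 over all tumors, -0.41 within groups). Its r was also negative with Upk3b (-0.52 and -0.18), Wt1 (-0.47 and -0.61) and Lrrn4 (-0.25 and -0.46). Calb2 belonged to neither set, with r between -0.36 and 0.40 over all tumors. These values share libraries and their scaling, and are a description.

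**Figure D3:**
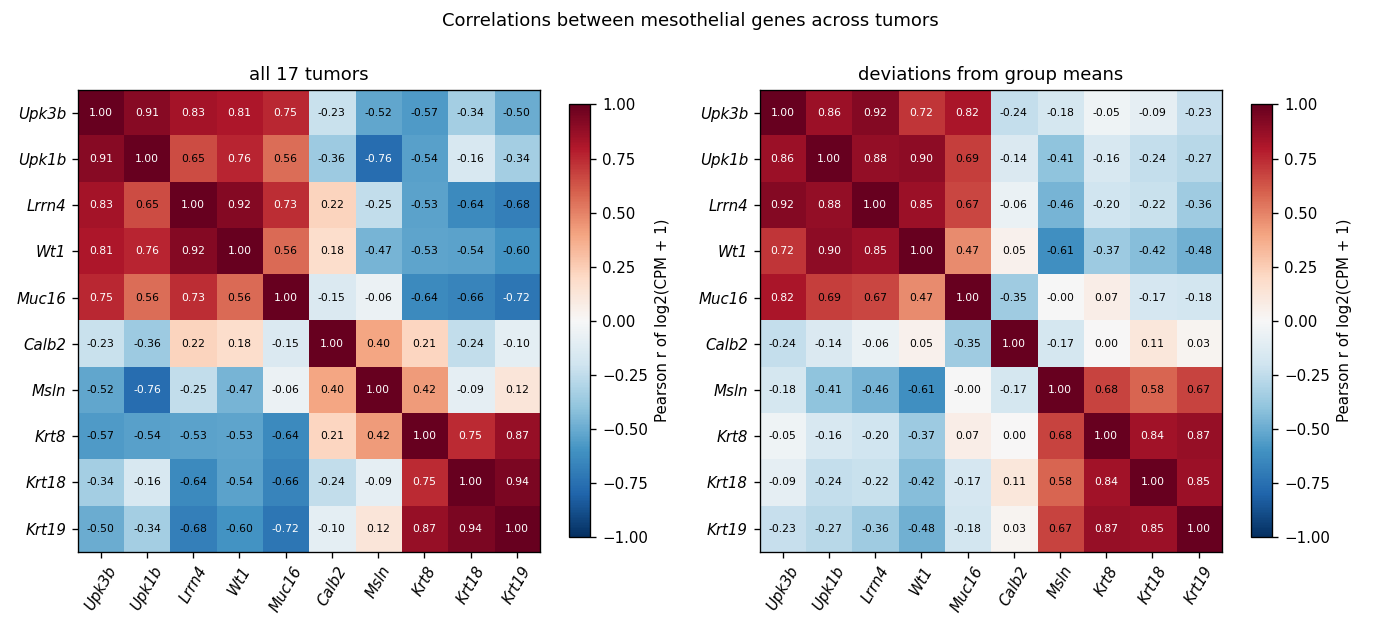
Pearson correlation of log2(CPM + 1) between the 10 genes, over all 17 tumors (left) and over deviations from the 5 group means (right), with r printed in each cell and colored from -1 (blue) to 1 (red). Upk3b, Upk1b, Lrrn4, Wt1 and Muc16 form a block of positive values in both panels, and Msln joins the block of the keratins in the right one.

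The genes whose pattern was most like that of 4 of the markers were ranked among 12369 protein coding genes with a mean of at least 1 CPM. For Upk3b they were Gpm6a (r = 0.96), Smpd3 (0.96), Efemp1 (0.92), Clec3b (0.91) and Siglecg (0.90), and for Wt1 they were Sulf2 (0.95), Slc6a4 (0.95), Afap1l2 (0.94), Cdh11 (0.94) and Cldn10 (0.94). For Msln they were Wars2 (0.97), Pxdc1 (0.97), Ttc5 (0.96), Tmem18 (0.95) and Flna (0.94), and for Krt8 they were Mgst3 (0.95), Rangap1 (0.94), Icam4 (0.94), Ssna1 (0.94) and Npepps (0.93). Gpm6a and Efemp1 belong to the list of other mesothelial genes below, and none of the genes most like Msln or Krt8 does. Msln was 174 to 304 CPM in the d6 tumors and untreated d10 replicates 1 to 3, and at least 348 CPM elsewhere. The former tumors had the most Mir6236 counts, and the part of this split in the ranking for Msln was not tested.

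Other genes known from mesothelium were followed as a list of 13, of which 12 were tested, since Pdpn was listed at 0 or 1 count in every library. Under treatment at d14, 6 of the 12 rose (Bnc1, Cldn15, Nkain4, Slpi, Efemp1 and Thbd), none was called lower, and the median log2 fold change was 1.41 with 12 of 12 positive, where 9.07% of all genes were called higher. The largest changes were those of the tight junction gene Cldn15 (1.96, SE 0.39, edgeR, adjusted p = 0.011), of Nkain4 (1.80, SE 0.56, adjusted p = 0.043) and of Slpi, a secreted protease inhibitor (1.63, SE 0.45, adjusted p = 0.029). The count of 6 was 1 without treated replicate 1 and 2 without treated replicate 2 or without untreated replicate 1. Of all genes, 976, 1010 and 1121 were called higher in these settings, beside 1638 with all tumors. At d10 none of the 12 was called (0 by edgeR, with 9 lower at an unadjusted p below 0.05 and 5 lower by DESeq2), the median was -0.998 and 0 of 12 were positive. Of all 17258 genes, 1351 were lower at that unadjusted p, and DESeq2 called 0.962% lower. Between the days 10 of the 12 differed upward, beside 9.67% of all genes, among them Cldn15 (3.54, SE 0.53, edgeR, adjusted p = 0.0027), Nkain4 (3.21, SE 0.71, adjusted p = 0.0093), Gpm6a (2.99, SE 0.85, adjusted p = 0.027) and Efemp1 (2.91, SE 0.47, adjusted p = 0.0036). Without treated d10 replicate 1 or treated d14 replicate 1, 6 were called. Of all genes, 1408 and 1169 were called higher in these settings, beside 1797 with all tumors. In untreated tumors 4 were lower at d14 than at d6 (Aldh1a2, which encodes a retinoic acid synthesizing enzyme, Prg4, Slpi and Thbd) and 0 higher, beside 8.81% of all genes called lower. From d6 to d10 Crb2 was higher and Slpi lower, and from d10 to d14 Aldh1a2 was lower, beside 4.79%, 2.66% and 3.45% of all genes. All 3 tested adipocyte markers (Adipoq, Plin1 and Cidec) were called lower at d14, with a median of -2.70 from d6 and -2.40 from d10. Of all genes, 8.81% and 3.45% were called lower over the same days. Their sum in untreated tumors, with all 4 markers, was 4.70 to 12.5 CPM at d6, 4.46 to 9.59 at d10 and 0.77 to 2.05 at d14. Of the 5 fibroblast markers Lum and Dpt were lower and Pdgfra higher at d14 than at d6, and the part of these markers in the falls over time was not tested.

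**Figure D4:**
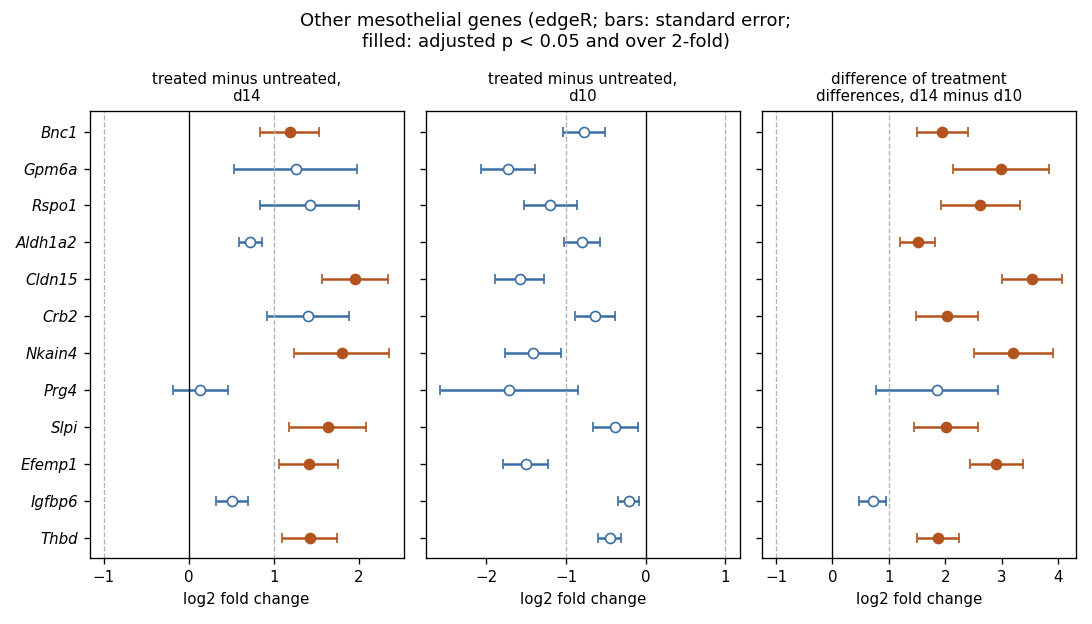
Log2 fold change of the 12 tested other mesothelial genes between treated and untreated tumors at d14 and at d10, and the difference between these, with its standard error as a bar. Filled symbols passed an adjusted p of 0.05 and a fold change of 2. All 12 genes lie to the right of 0 at d14 and to the left at d10, where none passed.

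The same comparison at d14 moved markers of other cells. In this comparison 9.07% of all genes were called higher and 2.4% lower. All 5 fibroblast markers (Pdgfra, Dcn, Lum, Dpt and Col1a1) were called higher, with a median of 1.23. Their summed level was 1267 to 1952 CPM in treated and 508 to 1002 CPM in untreated d14 tumors. Of 4 leukocyte markers Cd68 was called higher (summed level 624 to 756 against 279 to 433 CPM), and of 4 endothelial markers none was (132 to 158 against 79.5 to 97.7 CPM). At an unadjusted p below 0.05 all 4 endothelial markers were higher, beside 4280 of all 18062 genes. Of 3 adipocyte markers tested Plin1 was called higher (summed level of all 4 markers 1.69 to 5.69 against 0.77 to 2.05 CPM). At d10 the fibroblast sum was 717 to 1022 CPM in treated and 885 to 1311 CPM in untreated tumors, and the adipocyte sum was 2.27 to 3.03 CPM in treated and 4.46 to 9.59 CPM in untreated tumors, without overlap. Their part in the differences of the mesothelial genes was not tested.

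Treated d14 tumors also differed in pancreas acinar markers, of which 4 of the 4 tested were called higher, beside 9.07% of all genes. The sum of all 5 was 2611, 3.54 and 881 CPM in treated replicates 1 to 3 and 0.62 to 1.73 CPM in untreated d14 tumors. The sum of 4 liver markers, none of which passed the filter for testing, was 4.40, 0.063 and 1.21 CPM in the same treated tumors and 0.013 to 0.041 CPM in untreated ones. Treated replicate 2, with the lowest sum, had 29.7 CPM of Wt1 and 25.3 CPM of Lrrn4, above every untreated d14 tumor. Set alone against the untreated d14 tumors it gave log2 differences of 1.44 for Wt1 and 2.24 for Lrrn4. With 1 treated tumor its own spread could not be measured, so no call is given here. Reproductive tract markers summed to 5.54 to 7.03 CPM in treated and 8.83 to 10.6 CPM in untreated d14 tumors, with Pax8 called lower, and skeletal muscle markers to 0.36 to 0.60 and 0.20 to 0.28 CPM, with Tnnt3 called higher. The sums were 0.51 to 0.59 and 0.597 to 0.63 CPM for urothelium and 2.004 to 2.80 and 2.66 to 3.80 CPM for intestine, and the part of these markers was not tested. Fabp2, Cdx1 and Foxl2 had at most 3 counts in every library.

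Further lists set the identity genes beside related programs. Of the epithelial adhesion genes, 3 of 8 tested were called higher under treatment at d14 (Epcam, Cldn3 and Cldn7) and none lower. Of all genes, 9.07% were called higher and 2.4% lower. The 3 became 0 without treated replicate 1, where higher calls of all genes fell from 1638 to 976. Epcam was among those lower at d14 than at d6. Of 10 mesenchymal genes Snai1 was called higher under treatment at d14, while Cdh2, N-cadherin, was higher and Acta2 lower at d10 and at d14 than at d6. Among tumor suppressors of mesothelioma 0 of 7 tested were called at d14 under treatment by edgeR or DESeq2 (2 higher at an unadjusted p below 0.05), and from d6 to d10 Cdkn2a and Cdkn2b were higher. Of 10 genes of the YAP and TEAD pathway edgeR called none under treatment on either day (2 higher and 3 lower at d14 and 3 higher at d10 at an unadjusted p below 0.05, and 1 higher at d10 by DESeq2), Ankrd1 was lower at d14 than at d6, and the difference between days was called lower for Ccn2 alone. Shares of all genes called higher and lower were 4.79% and 2.66% from d6 to d10 and 10.2% and 8.81% from d6 to d14. For the difference between days 2.15% were called lower. Of all genes, 4280 were higher and 3919 lower under treatment at d14 at an unadjusted p below 0.05. At d10 these counts were 978 and 1351, and DESeq2 called 57 genes higher.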

How the data were processed

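RNA of the 17 tumors was isolated with TRIzol, prepared with the KAPA RNA HyperPrep kit and sequenced on a NextSeq500 or NovaSeq6000, and which library went on which instrument is not given in the sources used here. The authors aligned reads to GRCm38 with TopHat2 (version 2.0.14 in the submitters' processing notes) and HTSeq assigned them to Gencode vM21 genes. The authors deposited raw counts per gene, without normalization. For their own analysis they report removing genes that showed a batch effect between sequencing projects. The tests here kept such genes where they passed the filter. The strand setting is not given in the sources used here.

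Counts were filtered (filterByExpr), TMM-normalized and tested with edgeR 4.0.16 in R 4.3.3, each fit holding the compared groups alone, with Benjamini-Hochberg adjustment over all genes tested. The fits were tested on simulated data. Levels are CPM, TMM-scaled over all 17 libraries. DESeq2 1.42.0 was an alternative, as were the other settings named in the closing section. Replicate pairs had a chi-square per gene of 18.5 to 268, so none agreed within sampling noise. The labels do not say that same-numbered tumors are related, and p-values measure the spread between tumors of a group. The members, lists and naming rule (all members, and called genes of lists where 5 or fewer, otherwise up to 4 of the largest) were chosen with earlier results of these data known. Figures used matplotlib 3.10.9. A result of the adhesion gene list is not reported here.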

Additional observations from a re-analysis of the deposited data

Results flagged for a closer look

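In untreated d10 tumors, the only group of more than 3, replicate 5 stood apart for Upk1b (3.32 CPM, the lowest of 5) and replicate 4 for Muc16 (0.64 CPM, the highest of 5) by Dixon's criterion. These were 2 of 10 genes examined, and chance gives about 1 in 20.

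The treatment difference was not the same at d14 as at d10 for 4 of the genes, by the interaction in edgeR's quasi-likelihood test: the log2 difference between days was 3.56 for Upk3b, 3.17 for Upk1b, 2.48 for Wt1 and 3.71 for Lrrn4. In each case treated tumors were below untreated tumors on average at d10 and above them at d14.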

How the results depend on the processing

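Numbers of the 10 genes called moved with the setting as follows. From d6 to d10, higher calls were 2 with d10 replicates 1 to 3 and 2 with replicates 4 and 5. Lower calls were 0 with replicates 1 to 3 and 0 with the replicate block, and leaving out 1 tumor gave 0 to 2 higher and 0 to 1 lower. Of all genes, 946, 1240, 504, 488, 514 to 876 and 252 to 501 were called in the same order. From d10 to d14, 1 gene was higher with all 5 groups in one fit, 1 lower with the replicate block and 1 with d10 replicates 1 to 3, and 0 to 1 lower when a tumor was left out. Of all genes, 1028, 931, 1142 and 132 to 766 were called in the same order. From d6 to d14, 2 were higher without TMM, 2 lower with the block, and leaving out a tumor gave 1 to 2 higher and 0 to 2 lower. Of all genes, 2053, 1538, 1673 to 1813 and 1415 to 1624 were called in the same order. Under treatment at d14 higher calls were 1 with the block and 1 to 5 without a tumor, beside 1369 and 976 to 2214 of all genes. The setting with treated replicate 2 alone, chosen after seeing the data, holds 1 treated tumor, and its calls at d14 are not given. At d10 lower calls were 3 with DESeq2, 2 with all genes of at least 1 count, 5 with the block, 5 against replicates 1 to 3 and 0 to 4 without a tumor. Of all genes, 166, 21, 847, 823 and 0 to 69 were lower in the same order. For the difference between days lower calls were 2 with the block, 2 with d10 replicates 1 to 3 and 0 to 1 without a tumor. Of all genes, 770, 802 and 224 to 534 were lower in the same order. The cause was not tested.

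Some differences that had not passed the test changed sign. From d6 to d10 they were -0.15 for Krt19 with the replicate block, -0.17 with d10 replicates 1 to 3 and -0.075 to 0.23 without a tumor (-0.05 without d6 replicate 3), and with d10 replicates 4 and 5 they were -0.060 for Wt1 and 0.036 for Krt18. From d10 to d14 without a tumor Upk3b was -1.31 to 0.094 (the latter without d14 replicate 2) and Muc16, 1.80 with all tumors, was -0.40 to 2.29 (the former without d14 replicate 3). From d6 to d14 Lrrn4 was -0.19 with the block and -0.53 to 0.59 without a tumor (-0.53 without d14 replicate 3, -0.13 without d6 replicate 2), and Muc16, 1.04 with all tumors, was -1.15 (without d14 replicate 3) to 1.54. Under treatment at d10 Krt19 was -0.022 without TMM, -0.0013 with all genes of at least 1 count, -0.31 against replicates 4 and 5 and -0.12 to 0.16 without a tumor (-0.12, -0.05, -0.07 and -0.03 without treated replicate 2 or untreated replicate 1, 2 or 3). Krt18 was 0.10 with the block, 0.11 against replicates 1 to 3 and -0.12 to 0.064 without a tumor (above 0 without treated replicate 1 or untreated replicate 5), and against replicates 4 and 5 Krt8 was -0.11 and Calb2 0.041.

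Same-numbered tumors share only a number: in each comparison 1 of 3 pairs had deviations correlated above 0.1 (range -0.30 to 0.19), so the block is not a pairing by design. Levels without TMM were 0.931 to 1.11 times those given. With 3 tumors in most groups single tumors decide calls, as named beside each result, among them untreated d14 replicate 3 for Muc16.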
